A study of Mus musculus with 6 samples.

Results

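The transcripts of Gpnmb, of the MITF family of transcription factors and of 5 bone-resorption genes that the family is known to control were followed in mouse liver with and without arylsulfatase B (ARSB). ARSB is a lysosomal sulfatase that takes part in the breakdown of sulfated glycosaminoglycans. The members were the 10 genes Gpnmb, Mitf, Tfeb, Tfec, Tfe3, Ctsk, Acp5, Oscar, Clcn7 and Ostm1, out of 19938 genes named by a probe set with 1 gene symbol. Each was read through its probe set with 1 symbol, taking that of the highest mean signal where a gene had several. All 10 were measured, 9 of them by 1 such probe set and Mitf by 2. The ARSB-null group was 3 homozygous ARSB-null mice and the control group was 3 C57BL/6J mice. All were untreated males of the C57BL/6J background at 12 weeks of age, and each liver was put on 1 array. The labels describe similar breeding and housing for both groups, and whether the controls were littermates was not stated in the sources used here, so genotype and colony cannot be told apart.

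GPNMB is a type I transmembrane glycoprotein of macrophages, osteoclasts and pigment cells, and is found in the melanosomal and lysosomal membranes and at the cell surface. MITF, TFEB, TFEC and TFE3 are basic helix-loop-helix leucine zipper proteins that bind E-box DNA as dimers and switch on genes for pigment, bone resorption and lysosomes. Their activity is set largely by phosphorylation, which holds them in the cytoplasm or releases them to the nucleus, so that the amount of their mRNA need not follow their activity. The arrays measured mRNA only.

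The study addressed whether a decline in ARSB acts on Gpnmb through an MITF site in its promoter. Its binding assay, done in the human liver cancer line HepG2 and hence on the human promoter, named the short sequence CAGGT as that site, and the mouse promoters are searched for it here. Promoter sequences of all 10 members were taken from RefSeq (GRCm38.p6), with 18 annotated starts between them. The 4 printed here are 5′ to 3′ on the strand of the gene and cover the 250 bases before the start. They were chosen as that of Gpnmb and, for comparison, those of 3 bone genes that hold an M-box core (CATGTG) or a CLEAR-type E-box (CACGTG), the forms that the MITF family is best known to bind. Gpnmb lies on the plus strand at chr6:49036268-49036517, Acp5 (the last of its 3 starts) on the minus strand at chr9:22130599-22130848, Oscar on the minus strand at chr7:3616158-3616407, and Clcn7 (the first of its 2 starts) on the plus strand at chr17:25133141-25133390. Capitals mark these 3 motifs, and TGANTCA as a loose form of an AP-1 site, on either strand.
Gpnmb: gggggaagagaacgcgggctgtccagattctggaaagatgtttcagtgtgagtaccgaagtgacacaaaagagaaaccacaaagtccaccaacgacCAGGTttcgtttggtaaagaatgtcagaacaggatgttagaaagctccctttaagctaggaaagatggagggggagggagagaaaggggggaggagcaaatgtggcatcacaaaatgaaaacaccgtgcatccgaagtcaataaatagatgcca
Acp5: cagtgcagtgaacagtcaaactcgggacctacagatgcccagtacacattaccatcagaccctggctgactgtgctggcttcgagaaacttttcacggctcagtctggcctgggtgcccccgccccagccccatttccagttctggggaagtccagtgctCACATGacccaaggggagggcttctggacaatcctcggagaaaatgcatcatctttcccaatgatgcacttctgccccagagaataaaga
Oscar: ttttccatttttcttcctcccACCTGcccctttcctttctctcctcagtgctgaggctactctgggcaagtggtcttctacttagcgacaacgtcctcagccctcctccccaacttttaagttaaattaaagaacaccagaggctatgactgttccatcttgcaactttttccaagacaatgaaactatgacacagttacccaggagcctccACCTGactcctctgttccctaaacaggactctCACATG
Clcn7: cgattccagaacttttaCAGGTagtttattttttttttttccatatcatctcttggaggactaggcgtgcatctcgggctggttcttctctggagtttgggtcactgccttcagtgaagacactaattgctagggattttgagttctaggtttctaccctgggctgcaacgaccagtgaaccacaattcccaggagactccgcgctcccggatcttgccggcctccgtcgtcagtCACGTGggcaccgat

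The search covered 300 bases around each start, the 250 before it and 50 from the start on, and base 1 was the annotated start. The promoter of Gpnmb held CAGGT once, from base -154 to -150, and neither the M-box core nor the CLEAR-type E-box. It also held TGACTCA, which has the AP-1 form, from base 9 to 15. CAGGT, on either strand, was in 8 of the 18 promoters of the members, which belong to 7 genes, and in 50.1% of the 32851 promoters searched. CATGTG was in those of Acp5, Oscar and Clcn7 and in 14.2% of all promoters. CACGTG was in that of Clcn7 alone among the members, with 1 match before and 1 after the same start, and in 7.15% of all promoters. TGANTCA, with any base at N, was in those of Gpnmb (TGACTCA) and Tfe3 (TGAATCA) and in 7.81% of all promoters. The usual AP-1 site has C or G at N, so the Tfe3 match and this share are of a looser form. None of the 4 motifs was found around the starts of Tfec and Ctsk. CAGGT can form part of a longer E-box (CAGGTG), but in the Gpnmb promoter printed above it is followed by T and does not. None of these matches is a measured binding site.

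**Figure D1:**
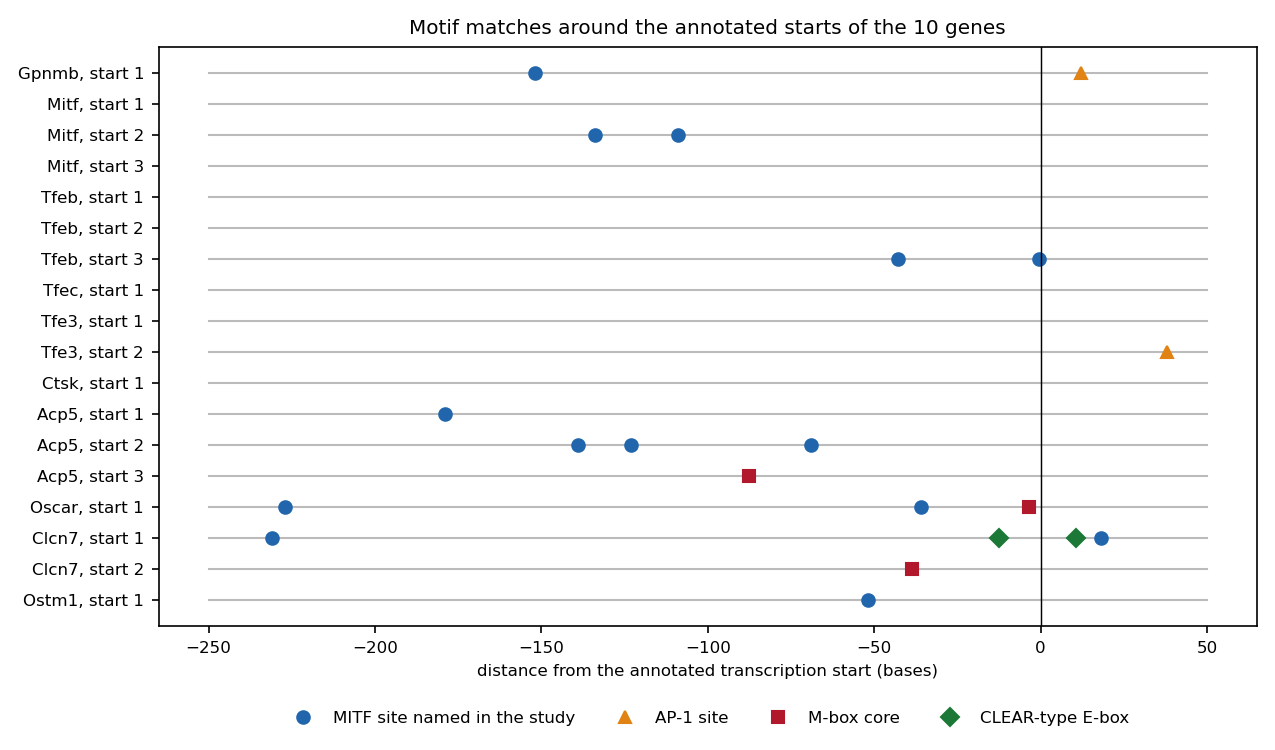
Motif matches by distance in bases from the annotated transcription start (horizontal axis) for the 18 annotated starts of the 10 genes (rows), over 250 bases before and 50 from the start on. Gpnmb has 1 match to the MITF site named in the study and 1 AP-1 type match, and the CLEAR-type E-boxes lie at the first start of Clcn7. AP-1 sites are drawn for TGANTCA with any base at N.

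Before the members, the knocked-out gene and the tissue were checked. On the brighter of its 2 probe sets, Arsb averaged 10.21 ± 0.01 (SD, n = 3) in control liver against 7.57 ± 0.10 (SD, n = 3) in the ARSB-null group (log2 signal), in the direction that the labels give. The 11 measured hepatocyte markers, among them albumin, had a mean log2 signal of 13.5 to 13.7 on each array, against array medians of 6.50 to 6.60. The values carry no detection calls, so a dim probe set cannot be told from one at background.

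Gpnmb rose in the ARSB-null livers. On probe set 10538187, the log2 signals of the ARSB-null mice numbered 4, 5 and 6 were 8.79, 8.73 and 8.77, and those of the controls with these numbers were 5.77, 5.42 and 5.36. The ARSB-null livers lay within 0.06 of each other on the log2 scale, whereas the controls spanned 0.41, with the control numbered 4 above the other two, and the groups were far from overlapping. The difference of the means was 3.25 on the log2 scale (standard error 0.13, 95% interval 2.94 to 3.56, adjusted p = 0.000639 from limma), a 9.53-fold higher signal. The control signals of Gpnmb lay below the array medians of 6.50 to 6.60 and cannot be told from background, so the fold is that of the deposited signals and need not be that of the mRNA. By p it ranked 2 among all 35556 probe sets, between the pair that read Arsb. Over all probe sets, 0.0197% were past this threshold, 0.00562% as higher and 0.0141% as lower. As a single value the exact permutation test gave p = 0.1, two-sided, the smallest that 3 arrays against 3 allow. In a one-way analysis of variance of each probe set alone, the p of Gpnmb adjusted over all probe sets was 0.0957.

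**Figure D2:**
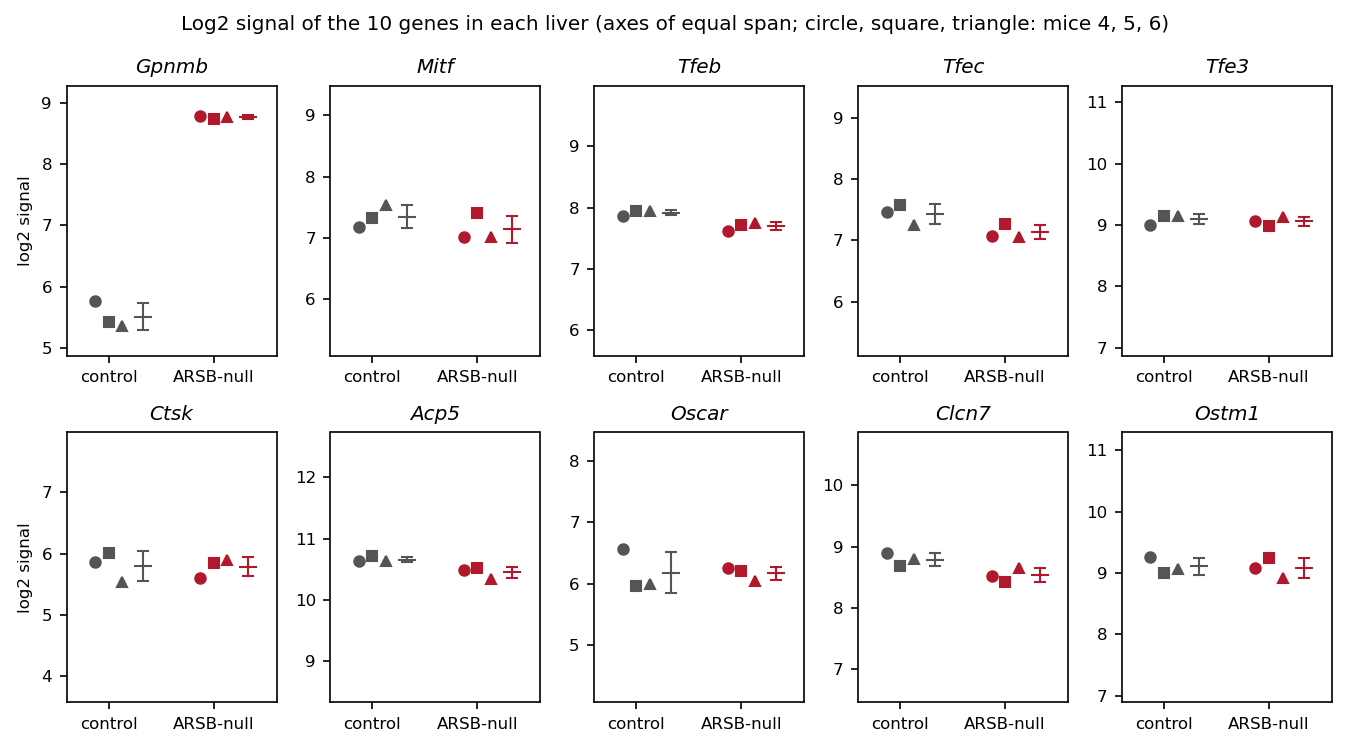
Log2 signal (vertical axes, each spanning the same range) of the 10 genes in each control (grey) and ARSB-null (red) liver, with symbols for the mouse number and the mean ± SD (n = 3) beside them. Gpnmb stands near 8.77 in ARSB-null and near 5.51 in control liver, and no other gene moves by a like amount.

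Macrophages are the resident liver cells best known to carry GPNMB, and in whole liver a change in the number of such cells and a change in mRNA per cell cannot be told apart. Of 14 measured markers of lipid-laden macrophages, 6 were higher and 0 lower at an unadjusted p under 0.05, which 2.75% of all probe sets passed as higher and 3.19% as lower, and the median log2 difference was 0.16. The mean log2 signal of the list was 9.30 to 9.33 on the ARSB-null arrays and 8.85 to 9.04 on the control arrays, which did not overlap. None of these markers passed the adjusted threshold. This list and the next were chosen with earlier results of these data known. Their counts and means are therefore no independent evidence. Ms4a7, a macrophage membrane protein, and Mmp12, the macrophage elastase, had differences of 1.39 and 0.96 (both adjusted p = 0.0941 from limma). Trem2, a lipid-sensing receptor, and Cd63, a lysosomal tetraspanin, had differences of 0.45 and 0.87 (adjusted p = 0.419 and 0.451 from limma). The control means of Ms4a7, Mmp12 and Cd63 were 5.55, 5.61 and 6.18. These lay below the array medians and cannot be told from background.

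Of 20 further markers of Kupffer cells, macrophages or monocytes, 2 were higher and 4 lower at an unadjusted p under 0.05. Of all probe sets, 2.75% passed as higher and 3.19% as lower. The markers had a median log2 difference of -0.14. Their mean log2 signal was 8.34 to 8.42 on the ARSB-null and 8.31 to 8.60 on the control arrays, which overlapped. Cd68, a lysosomal glycoprotein, and C1qa, a complement subunit, had differences of 0.53 and 0.39, whereas Folr2, a folate receptor, and Cd163, the haemoglobin scavenger receptor, had -0.75 and -0.77 (adjusted p of 0.272 to 0.568 from limma). C1qb and C1qc, the partner subunits of C1qa, differed by -0.13 and -0.14, with overlapping groups. Adgre1 and Csf1r, also lower at the unadjusted p, differed by -0.35 and -0.33 (both adjusted p = 0.835 from limma), with overlapping groups. The part of these cells in the result for Gpnmb was not tested.

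None of the 4 genes for the transcription factors passed the test in either direction, and the mean of each was lower in ARSB-null liver. For Mitf, the factor of pigment cells and osteoclasts that gives the family its name, the brighter probe set (10540248) read 7.02, 7.40 and 7.01 in ARSB-null mice 4, 5 and 6 and 7.18, 7.32 and 7.54 in control mice (log2 signals). The groups overlapped, since the ARSB-null liver numbered 5 lay above the lower pair of controls. The log2 difference was -0.20 (standard error 0.15, 95% interval -0.57 to 0.16, adjusted p = 0.972 from limma). In linear terms the interval ran from 0.674 to 1.12 times the control signal. The second probe set of Mitf (10540265), with log2 signals of 2.99 to 3.16 in ARSB-null and 3.14 to 3.48 in control liver, gave a difference of -0.19 (95% interval -0.48 to 0.10, adjusted p = 0.958 from limma). Its signals lay far below the array medians of 6.50 to 6.60 and cannot be told from background, so it adds little to the first.

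Tfeb, which drives lysosome formation and autophagy genes, was read by probe set 10445729. The 3 ARSB-null mice gave 7.62, 7.72 and 7.74, and their control counterparts 7.87, 7.94 and 7.94 (log2 signals). Every ARSB-null liver lay below every control, by a margin that was small in size (log2 difference -0.22, standard error 0.09, 95% interval -0.44 to -0.0015). The unadjusted p was 0.0488 and the adjusted p 0.839 from limma. Tfec, the member of the family most restricted to macrophages, read 7.07, 7.26 and 7.06 in ARSB-null and 7.46, 7.57 and 7.25 in control liver (probe set 10543239). The ARSB-null liver numbered 5 lay just above the control numbered 6, so the groups overlapped, and the log2 difference was -0.30 (standard error 0.12, 95% interval -0.59 to -0.0050, adjusted p = 0.837 from limma). Tfe3, which is broadly expressed and shares many targets with Tfeb, read 9.06, 8.98 and 9.14 in ARSB-null and 8.995, 9.15 and 9.15 in control liver (probe set 10598409). Its groups overlapped, with a log2 difference of -0.04 (95% interval -0.28 to 0.20, adjusted p = 0.994 from limma).

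The 5 bone-resorption genes did not pass the test either. Acp5, the tartrate-resistant acid phosphatase of osteoclasts and macrophages, read 10.49, 10.52 and 10.35 in ARSB-null and 10.63, 10.72 and 10.64 in control liver (probe set 10591739, log2 signals). The groups did not overlap, and the log2 difference was -0.21 (standard error 0.10, 95% interval -0.44 to 0.02, adjusted p = 0.864 from limma). Clcn7, the chloride-proton exchanger of lysosomes and of the osteoclast's resorbing membrane, read 8.51, 8.43 and 8.65 against 8.89, 8.68 and 8.80 (probe set 10442691). Here too all ARSB-null livers lay below all controls, with a log2 difference of -0.26 (standard error 0.11, 95% interval -0.52 to 0.0065, adjusted p = 0.843 from limma). For Ostm1, the partner subunit that the CLCN7 protein needs, the log2 signals were 9.08, 9.25 and 8.92 in ARSB-null and 9.26, 9.004 and 9.07 in control liver (probe set 10362829). These overlapped, and the difference was -0.03 (95% interval -0.33 to 0.27, adjusted p = 0.995 from limma).

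Ctsk, the collagen-degrading cathepsin K of osteoclasts, read 5.61, 5.85 and 5.90 in ARSB-null and 5.87, 6.01 and 5.54 in control liver (probe set 10494262, log2 signals). The log2 difference was -0.02 (95% interval -0.39 to 0.34, adjusted p = 0.998 from limma), and the highest and the lowest of the 6 values were both controls. Oscar, an immunoglobulin-like receptor of osteoclasts and myeloid cells, read 6.25, 6.21 and 6.05 against 6.56, 5.97 and 6.00 (probe set 10559399). The control numbered 4 stood above all others, and the log2 difference was -0.0063 (95% interval -0.43 to 0.41, adjusted p = 0.999 from limma). Ctsk and Oscar were the only members with a mean signal below the median of the probe sets. Leaving out that control turned the difference of Oscar to 0.19 (adjusted p = 0.690 from limma), and those of Ctsk and Ostm1 to 0.0095 and 0.05, with no call.

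**Figure D3:**
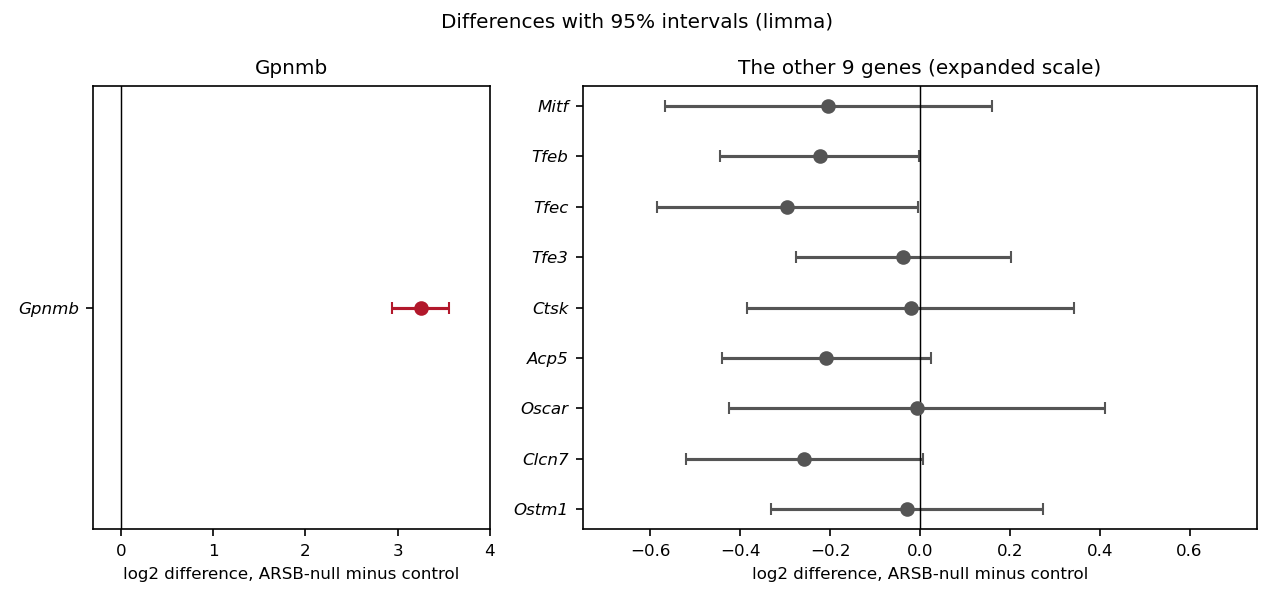
Log2 difference, ARSB-null minus control (horizontal axes), with its 95% interval from limma for Gpnmb (left) and for the other 9 genes on an expanded scale (right). The interval of Gpnmb runs from 2.94 to 3.56, and the upper ends of the others reach at most 0.41.

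Across the members, 1 of 10 was higher and 0 were lower at the adjusted threshold. At an unadjusted p under 0.05, 1 was higher (Gpnmb) and 2 were lower (Tfeb and Tfec), where 5.94% of all probe sets passed, 2.75% as higher and 3.19% as lower. Of the 10, 1 had ARSB-null values wholly above the controls (Gpnmb, against 5.14% of all probe sets) and 3 had them wholly below (Tfeb, Acp5 and Clcn7, against 6.78%). By the one-way analysis of variance at an unadjusted p under 0.05, 1 was higher (Gpnmb, against 2.65% of all probe sets) and 3 were lower (Tfeb, Acp5 and Clcn7, against 3.91%). The mean was lower in ARSB-null liver for 9 of 10, and for 49.6% of all probe sets. The median log2 difference was -0.12 over the 10 members and 0.0015 over all probe sets. The differences of the 9 members other than Gpnmb lay between -0.30 and -0.0063 on the log2 scale. The highest upper end of their 95% intervals was 1.33-fold, that of Oscar, below the lower end of 7.68-fold for Gpnmb.

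The wider network of the family was followed through lists of targets, regulators and partners, on which no gene passed the adjusted threshold. An unadjusted p under 0.05 was passed by 2.75% of all probe sets as higher and 3.19% as lower. These shares stand beside the counts of each list below. Of 18 osteoclast genes, 1 was higher and 1 lower at an unadjusted p under 0.05, and the median log2 difference was 0.01. Atp6v0d2, a subunit of the proton pump that MITF is known to activate in osteoclasts and macrophages, had log2 signals of 8.57, 8.63 and 8.90 in ARSB-null and 8.18, 7.27 and 6.61 in control liver. The groups did not overlap but the controls were widely spread (log2 difference 1.34 with a standard error of 0.37, adjusted p = 0.605 from limma). Car2, the carbonic anhydrase that supplies protons, differed by -0.82 (adjusted p = 0.299 from limma). Bcl6, a repressor, and Mmp9, a gelatinase, had differences of -1.11 and -0.15 (adjusted p = 0.884 and 0.971 from limma). The groups of Bcl6 overlapped, and without the control numbered 4, which read 10.21 against 8.41 and 8.20 in the other controls, its log2 difference was -0.48. Calcr (calcitonin receptor) and the fusion genes Dcstamp and Ocstamp, genes of mature osteoclasts, had differences of -0.03, 0.10 and 0.17, each with overlapping groups. They were singled out for their role after their values were seen. The group means of Calcr and Dcstamp lay below the array medians of 6.50 to 6.60 and cannot be told from background.

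Of 18 pigment cell genes, 1 was higher and 1 lower at an unadjusted p under 0.05, with a median log2 difference of 0.04. Ednrb, the endothelin receptor of pigment cell precursors, which liver vessels also express, had log2 signals of 9.05, 9.05 and 9.43 in ARSB-null and 7.91, 8.24 and 8.12 in control liver. All ARSB-null livers were above all controls (log2 difference 1.09 with a standard error of 0.15, adjusted p = 0.195 from limma). Dct, a melanin-synthesis enzyme, differed by -0.37, Slc24a5, a pigment-cell ion exchanger, by 0.39 and Tyrp1, another melanin enzyme, by 0.19 (adjusted p of 0.827, 0.851 and 0.907 from limma). Their groups did not overlap, nor did those of Gpr143 and Rab27a, which were higher by 0.27 and 0.08. The group means of Dct, Slc24a5, Tyrp1, Gpr143 and Rab27a all lay below the array medians of 6.50 to 6.60. Such signals cannot be told from background. Of all probe sets, 11.9% had groups without overlap. The log2 differences of Tyr, Pmel and Mlana, the tyrosinase and structural proteins of melanocytes, were 0.04, -0.01 and -0.20, each with overlapping groups. Their group means also lay below the array medians, so their small differences cannot be read as unchanged mRNA. Pmel encodes the closest relative of the GPNMB protein. These 3 were named for their role after their values were seen.

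Of 36 measured lysosomal and autophagy targets of TFEB and TFE3, 3 were higher and 1 lower at an unadjusted p under 0.05, and the median log2 difference was -0.0023. Rragd encodes a Rag GTPase that recruits the mTORC1 kinase to lysosomes and is itself a target of the family. Its log2 signal was 6.55, 6.56 and 6.58 in ARSB-null and 6.12, 6.10 and 6.12 in control liver. The values were tight in both groups and did not overlap (log2 difference 0.45, standard error 0.09, 95% interval 0.24 to 0.66, adjusted p = 0.358 from limma). By the one-way analysis of variance of each probe set alone, its adjusted p was 0.0391. The standard error in that test was 0.011, taken from the spread of this probe set alone on 3 arrays per group. The control signals of Rragd lay below the array medians of 6.50 to 6.60 and cannot be told from background.

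Flcn, the folliculin that acts on these GTPases and restrains TFEB and TFE3, had log2 signals of 8.72, 8.65 and 8.77 against 8.29, 8.42 and 8.39. This gave a log2 difference of 0.35 without overlap (standard error 0.10, adjusted p = 0.621 from limma). Hexa, a subunit of hexosaminidase, had a difference of 0.32 and Atp6v1h, a proton pump subunit, one of -0.40 (adjusted p = 0.731 and 0.653 from limma). The lysosomal membrane genes Lamp1 and Mcoln1 and the autophagy receptor Sqstm1, named for their role after their values were seen, differed by -0.11, -0.06 and 0.02.

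Of 32 measured upstream regulators of the family, 0 were higher and 1 was lower at an unadjusted p under 0.05, with a median log2 difference of -0.04. That gene was Mlst8, a subunit of mTORC1 (log2 difference -0.26, adjusted p = 0.808 from limma). Slc38a9, an arginine sensor of the lysosome, Ywhab, a 14-3-3 protein that retains the factors in the cytoplasm, and Tsc1, which restrains mTORC1, differed by -0.24, -0.19 and 0.18, with adjusted p of 0.860, 0.876 and 0.894 from limma. The mechanism that the study examined runs through the phosphatase SHP2, encoded by Ptpn11, and the p38 kinase, chiefly Mapk14. These genes had log2 differences of -0.09 (95% interval -0.34 to 0.16) and -0.14 (95% interval -0.39 to 0.12), with adjusted p of 0.989 and 0.976 from limma. The activity and phosphorylation of their proteins are not read by the arrays.

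Of 15 measured genes for binding partners and processing of GPNMB, 1 was higher and 1 lower at an unadjusted p under 0.05, with a median log2 difference of 0.03. Lgals3 (galectin-3) had log2 signals of 8.73, 8.74 and 8.57 in ARSB-null and 7.87, 8.26 and 7.91 in control liver. The study reported that GPNMB in HepG2 cells still rose after ARSB silencing when galectin-3 was silenced too. For Lgals3, all ARSB-null livers were above all controls (log2 difference 0.67 with a standard error of 0.13, adjusted p = 0.378 from limma). Cd44, a hyaluronan receptor that binds GPNMB, differed by -0.32, Adam17, a sheddase, by -0.21 and Flt1, a receptor of vascular growth factors, by -0.14 (adjusted p of 0.839, 0.905 and 0.958 from limma). Adam10, which sheds the ectodomain of GPNMB, Itgb1 (integrin beta-1) and Sdc4 (syndecan-4), named for their role after their values were seen, had differences of -0.15, 0.03 and 0.10.

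**Figure D4:**
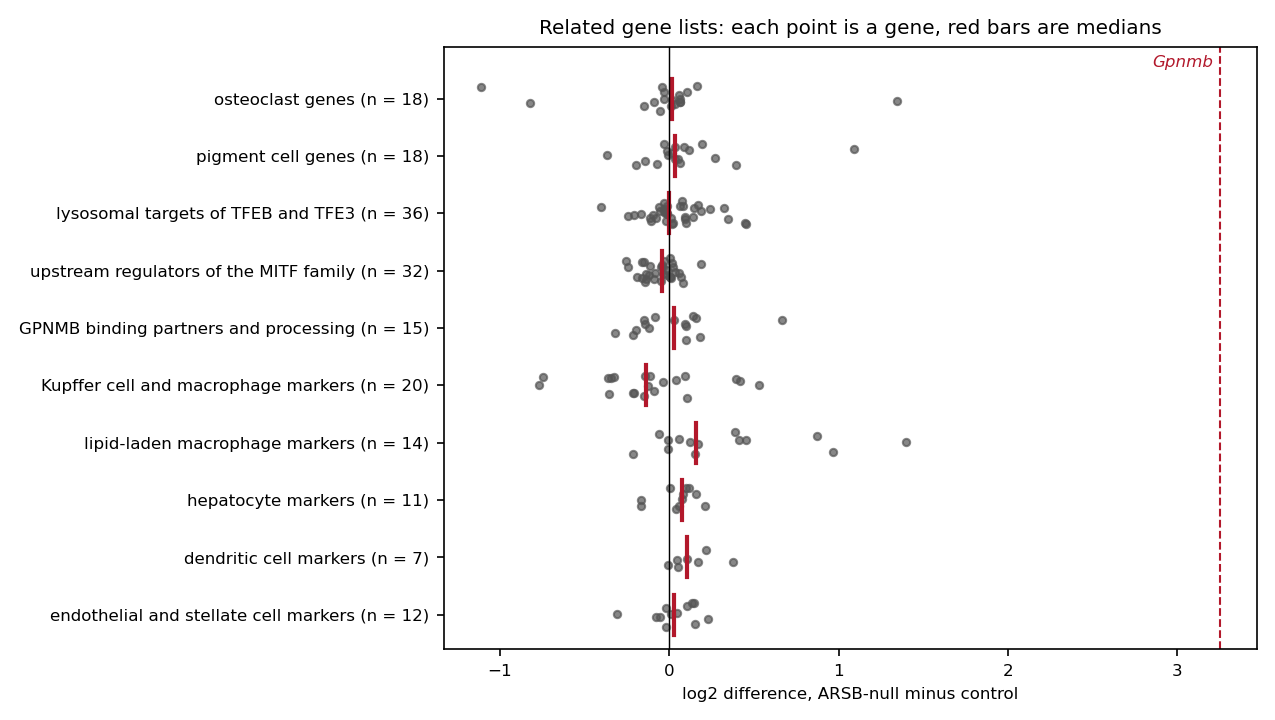
Log2 difference, ARSB-null minus control (horizontal axis), of each measured gene on the 10 related lists (points), with the median of each list as a red bar and Gpnmb as a dashed line at 3.25. The medians lie between -0.14 and 0.16, and no listed gene reaches the difference of Gpnmb.

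The 5 genes whose profile over the 6 arrays lay closest to that of Gpnmb were Vcam1, Snord118, Ms4a7, Gpx6 and Jchain. Closeness was the Euclidean distance between log2 signals centred on each gene's mean, which was 2.24, 2.27, 2.30, 2.45 and 2.46 in that order, where a flat profile lay at 3.995. Their own log2 differences were 1.47, 1.62, 1.39, 1.30 and 1.30, all smaller than the 3.25 of Gpnmb. The control means of Ms4a7, Gpx6 and Jchain lay below the array medians and cannot be told from background. Vcam1, an adhesion molecule for leukocytes, was the only one of the 5 past the adjusted threshold (adjusted p = 0.0487 from limma). The signals were not scaled, so this closeness largely follows the size of the rise. That no member of the MITF family or of the bone genes was among them restates their differences given above.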

How the data were processed

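Hepatic RNA from 6 mice was hybridized to mouse gene arrays, 1 array per liver, in 2 groups of 3. The values deposited by the authors are log2 signals of probe sets, quantile-normalized and summarized before deposit. RMA and Partek stand in the submitters' processing notes, with versions and probe set library not given in the sources used here. Normalization was not repeated from scanner files, so a shift shared by most genes would not be seen, and the number of arrays limits the precision. The study's methods name a later generation of the array than the one whose GEO platform annotation the probe set identifiers match, and every gene name rests on that annotation. It was applied to all 35556 probe sets, with 1 symbol for 21789, several for 1621 and no entry for 12146. Symbols were checked against RefSeq (GRCm38.p6), and 0 changed. None of the members shared all its values with another probe set.

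The groups were compared over all probe sets by limma (version 3.58.1, R 4.3.3) with lmFit and eBayes, two-sided, adjusted by Benjamini-Hochberg and called at 0.05. A fold is 2 to the power of the log2 difference, and intervals are 95% intervals of the same fit. Named were all members, Arsb, the 4 genes of each list with the smallest p, and the 5 genes closest to Gpnmb in profile. Any other was named after its values were seen, for its role or for those values. The members and the lists were chosen with earlier results of these data known. The 10 related lists held 195 genes, 183 of them measured.

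In the labels, each group's mice carry the numbers 4, 5 and 6. Whether the numbers pair the mice was checked on deviations from the group means over all probe sets, which correlated at 0.396, 0.159 and 0.193 for mice 4, 5 and 6. The unmatched pair of ARSB-null 6 and control 5 correlated at 0.220, above the matched pairs of mice 5 and 6, so the values do not single out those numbers. All matched pairs exceed the 0.1 set as the limit, so the fit blocked on the number is given where it changes a call. Labels do not say what a number shares. The procedure was tested on simulated data. Alternatives were the replicate block, each array left out, other priors, scalings, probe set selections and array weights, the methods' analysis of variance, and other thresholds. Leaving out both arrays numbered 4, and the block with only probe sets of 1 symbol, were added after seeing the data.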

Additional observations from a re-analysis of the deposited data

How the results depend on the processing

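Gpnmb kept its direction under every alternative run, with a log2 difference of 3.17 to 3.38, and its side of the threshold under all but 1. The test of the brighter probe sets alone is no support for it, since the control mean of Gpnmb (5.51) lay below the array medians and it passed that filter through the ARSB-null arrays. By the one-way analysis of variance the difference was 3.25 and the adjusted p 0.0957 (range over the alternatives 4.14e-06 to 0.0957), so that 0 members were higher. With the replicate block, for paired mice, the difference stayed at 3.25 (adjusted p = 0.0262 from limma), and the block changed no call among the members or the listed genes. Without each array in turn the difference was 3.17 to 3.38 (adjusted p = 0.00146 to 0.0174 from limma), with 1 member higher and 0 lower throughout. Without both arrays numbered 4 it was 3.37 (adjusted p = 0.0280 from limma).

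Of the members, 2 were lower at an unadjusted p under 0.05 (Tfeb and Tfec), and 3 by the analysis of variance at that p (Tfeb, Acp5 and Clcn7), which 3.91% of all probe sets passed as lower. The other 9 members passed the adjusted threshold under no alternative, with adjusted p of 0.290 or more. Differences near 0 turned sign 14 times, all of Tfe3, Ctsk, Oscar or Ostm1 and without a call. Ctsk and Oscar lay below the median signal and have no value when only brighter probe sets are tested.

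On the related lists, against 0 higher and 0 lower, probe sets with 1 gene symbol gave 3 higher (Ms4a7, Mmp12 and Ednrb), and with the replicate block as well 4 higher (these and Lgals3) and 3 lower (Car2, Folr2 and Cd163). Array weights gave 2 higher (Ms4a7 and Mmp12), an adjusted p under 0.10 gave 2 (the same genes) and the analysis of variance 1 (Rragd). At an unadjusted p under 0.05, 15 of the 183 measured genes were higher and 10 lower, against 2.75% and 3.19% of all probe sets. By the analysis of variance at that p there were 16 and 9, against 2.65% and 3.91% of all probe sets. With only probe sets of 1 gene symbol, fewer were tested and the limma prior was estimated on them alone. The causes of these changes in calls were not tested. With no detection calls, signal over background is not known.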

Other observations

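Marker lists of other liver cells held no gene past the adjusted threshold. At an unadjusted p under 0.05, 2.75% of all probe sets were higher and 3.19% lower. Of 12 endothelial and stellate cell markers, 0 were higher and 1 lower at an unadjusted p under 0.05, namely Lyve1, a hyaluronan receptor of sinusoidal endothelium (log2 difference -0.31, adjusted p = 0.799 from limma). Des (desmin), Acta2 (smooth muscle actin) and Stab2, a scavenger receptor of sinusoidal endothelium, differed by 0.15, 0.15 and 0.13, with adjusted p of 0.964 to 0.974 from limma. Of 7 dendritic cell markers, 1 was higher at an unadjusted p under 0.05, Clec9a, a receptor for dead cells (log2 difference 0.37, adjusted p = 0.838 from limma). The mean was higher in ARSB-null liver for 6 of the 7 and lower for 1. It was higher for 9 and lower for 2 of the 11 hepatocyte markers. Among the 20 Kupffer cell and macrophage markers it was higher for 6 and lower for 14. Of all probe sets, 49.6% had a lower mean. Zbtb46, a dendritic cell transcription factor, Cd209a, a lectin, and Flt3, a growth factor receptor, had differences of 0.21, 0.17 and 0.10, with adjusted p of 0.953 to 0.992 from limma. Of 11 hepatocyte markers, 0 passed in either direction even at the unadjusted p, and the median log2 difference was 0.07. Pck1 and Cyp2e1, enzymes of glucose synthesis and of drug oxidation, had differences of 0.21 and 0.16, and Hnf4a, a hepatocyte transcription factor, and Tat, an amino acid enzyme, both had -0.17, with adjusted p of 0.924 to 0.970 from limma.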
